A study of Homo sapiens with 6 samples.

Results

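HADHA, HADHB, NDUFA4, PDHX and MCU are nuclear genes for proteins of mitochondrial energy metabolism. Their promoters were examined for binding of FLAG-tagged ZNF335 in Jurkat T-REx cells, a line derived from human T cell leukaemia in which doxycycline switches an introduced gene on. The members were the peaks that overlapped 4 promoter intervals on hg19, with HADHA and HADHB sharing 1 interval because they are transcribed away from each other. The intervals held 7 of the 634 peaks of the WT list, 5 of the 174 peaks of the bloto list and 0 of the 1 peak of the control list. The promoters were selected on the peak calls of these same lists, so every value here is a description of them and no test was made.

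Each list came from 1 anti-FLAG ChIP library of 1 cell line. The WT line expressed 3xFLAG-tagged wild-type human ZNF335, the bloto line expressed 3xFLAG-tagged ZNF335 with the substitution R1092W, and the control line expressed no tagged protein. Per the labels' protocols, the tagged lines were stable clones grown from single cells, the transgene was linked to GFP, and doxycycline was given overnight. The labels do not describe removal of the cells' own ZNF335, which carries no tag. With 1 clone and 1 library for each form, the substitution cannot be told apart from differences between clones, and no value between lines has a replicate error. Fold is the authors' enrichment of a peak summit over its local background, and it was ranked only within its own list. Reads at a summit were recovered from the authors' fold and p-value columns, and their exact Poisson 95% intervals cover counting error only. The recovered depth was 8.67 WT and 9.28 bloto ChIP reads per kb of genome. The single control peak gives no depth for its library.

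ZNF335 is a zinc finger transcription factor, known as Zfp335 in mouse, where the bloto allele is known for a defect in T cell maturation. Mitochondria burn fatty acids by beta oxidation and pyruvate through the pyruvate dehydrogenase complex, and the electrons released pass along the respiratory chain to oxygen at cytochrome c oxidase. Calcium entering the matrix is a known activator of several of the dehydrogenases that feed this chain. The 5 genes are spread over these processes. HADHA and HADHB encode the alpha and beta subunits of the mitochondrial trifunctional protein, which carries out the last steps of long-chain fatty acid oxidation. PDHX encodes the component of the pyruvate dehydrogenase complex that anchors its dihydrolipoamide dehydrogenase. NDUFA4, first assigned to respiratory complex I and now counted with cytochrome c oxidase, is listed as COXFA4 in current RefSeq. MCU is the pore-forming subunit of the mitochondrial calcium uniporter.

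DNA just upstream of the annotated starts is printed here to show what lies between the divergent genes and in front of the single ones. The stretches come from the RefSeq promoter table on GRCh38.p14, which holds all 5 genes in 7 windows of 300 bases (250 before a start and 50 from it on). The peaks are on hg19, and the windows were not placed against them. HADHB is shown on the plus strand at chr2:26244689-26244938, NDUFA4 on the minus strand at chr7:10940154-10940403, and MCU on the plus strand at chr10:72691893-72692142. For PDHX, only the gap between it and its divergent neighbour APIP is shown, on the plus strand at chr11:34916380-34916437. Capitals mark the word TGCCTG on either strand (CAGGCA on the other), a 6-letter word picked for this work and not taken from a motif table.
HADHB: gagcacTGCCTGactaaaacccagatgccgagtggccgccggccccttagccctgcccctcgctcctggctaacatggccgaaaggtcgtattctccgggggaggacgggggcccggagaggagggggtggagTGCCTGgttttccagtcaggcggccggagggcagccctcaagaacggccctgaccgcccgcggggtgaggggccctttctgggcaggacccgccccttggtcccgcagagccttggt
NDUFA4: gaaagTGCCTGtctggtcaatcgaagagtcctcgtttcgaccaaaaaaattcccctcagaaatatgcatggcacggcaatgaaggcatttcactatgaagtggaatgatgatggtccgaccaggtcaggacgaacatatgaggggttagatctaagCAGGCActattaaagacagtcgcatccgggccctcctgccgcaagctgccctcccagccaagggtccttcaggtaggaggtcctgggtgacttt
PDHX: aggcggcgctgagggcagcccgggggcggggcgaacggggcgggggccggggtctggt
MCU: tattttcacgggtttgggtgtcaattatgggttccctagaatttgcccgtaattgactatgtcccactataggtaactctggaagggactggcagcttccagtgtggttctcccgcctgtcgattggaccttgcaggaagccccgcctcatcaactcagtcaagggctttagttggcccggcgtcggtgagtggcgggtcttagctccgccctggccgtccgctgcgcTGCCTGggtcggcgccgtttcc

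The sequences differed in composition. The RefSeq starts of HADHA and HADHB lay 307 bp apart, and their windows shared 194 bases, so a word in the shared part counts for both genes. APIP and the first PDHX start lay 59 bp apart. The NDUFA4 window was the poorest in G and C, with 50.7% and 10 CpG dinucleotides, against a median of 62.3% and 21 over 22199 windows of protein-coding genes. The first PDHX window had 71.7% and 33 CpG, the HADHB window 68.0% and 21, and the first MCU window 59.0% and 20. TGCCTG occurred 2 times in the HADHB window, beginning 244 and 117 bases before the start, and these are the same bases as the 2 copies of the HADHA window. NDUFA4 also held 2 copies, beginning 245 and 94 bases before its start, on opposite strands. The first MCU window held 1 copy, beginning 22 bases before the start, and neither PDHX window held any. Of all windows of protein-coding genes, 23.7% held the word on either strand and 4.03% held it 2 or more times. The word was chosen with earlier results of these data known, so these shares cannot show enrichment.

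The other words searched, on both strands, were those of known promoter factors. GGGCGG, the core of an SP site, occurred in 6 of the 7 windows, all but that of NDUFA4, and in 56.3% of all protein-coding windows. These 6 windows belong to 4 of the 5 genes and partly repeat the same bases. The HADHA match is also a HADHB match. The PDHX windows, with starts 180 bp apart, overlap and share matches. AANATGGC, a short form of the YY1 site, occurred in the HADHA and HADHB windows, as the same bases, and in the second PDHX window. It was found in 7.37% of protein-coding windows. CCAAT occurred in the first windows of PDHX and MCU, against 34.7% of protein-coding windows. The core of the NRF1 site (1.5% of protein-coding windows), the ETS word CGGAAG (23.8%) and TATAAA (9.47%) were in none of the 7 windows. No word of 8 letters was present at all 4 promoters, taking the windows of HADHA and HADHB together. A single word of 7 letters was, GCTGCCC, which 13.8% of protein-coding windows held. Within a window, none of the matches overlapped another, and each is a match of letters only.

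The HADHA and HADHB promoter had the strongest binding of the 4. Its central WT peak, chr2:26467284-26467931, was 648 bp wide with its summit at 26467624. The fold was 22.8, which ranked 8 among the 634 WT peaks, and 72 reads (95% interval 56.3 to 90.7) covered the summit over a local background of 2.05 reads. The next WT peaks by fold, just above and just below it, had folds of 23.1 and 21.6. In the bloto list a single peak, chr2:26467321-26467906, lay inside it, with 586 bp of width and its summit at 26467659. This bloto peak had a fold of 14.7, ranked 17 of 174, and 48 reads (35.4 to 63.6) over a background of 2.34. Of the 3 bloto peaks with most reads at NDUFA4, PDHX and here, it was the one that kept most of the width of its WT peak, 90.4%. The summits of the 2 lists were 35 bp apart.

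A weak WT peak stood on each side of this central peak. The one at chr2:26466946-26467171 had a fold of 5.76 and 19 reads (11.4 to 29.7), with its summit 481 bp from the central one. The one at chr2:26468067-26468284 had a fold of 3.67 and 16 reads (9.15 to 26.0), with its summit 613 bp from the central one. Gaps of 112 and 135 bp without a peak separated them from the centre. The second of these had a −log10 p of 5.47, the lowest of all 634 WT peaks, and its summit lay 37 bp beyond the promoter interval. Neither flanking peak had a bloto counterpart, so the 3 WT peaks of this promoter stood against 1 bloto peak.

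NDUFA4 had a similar number of summit reads, in a peak wider than the central one of HADHA and HADHB. Its only WT peak, chr7:10979525-10980331, was 807 bp wide, rank 33 of 634 by width, with the summit at 10979929. It had a fold of 16.6, rank 38, and 69 reads (53.7 to 87.3) over a background of 3.07. The bloto list divided this stretch into 2 peaks. The larger, chr7:10979712-10980031, had its summit at 10979933, 4 bp from that of WT, with a fold of 9.71 and 39 reads (27.7 to 53.3). The smaller, chr7:10980106-10980263, had its summit 215 bp further along, with a fold of 5.45 and 15 reads (8.40 to 24.7). Together they covered 478 bp, which is 59.2% of the length called in WT. The nearest other WT peak was 8230 kb from the interval, the longest such distance among the 4 promoters.

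PDHX had the widest peak and an intermediate signal. The WT peak, chr11:34937331-34938248, measured 918 bp, rank 20 of 634 by width, but only rank 136 by summit reads, with 44 (32.0 to 59.1). Its fold was 12.7, rank 89, and the summit lay at 34937840. The bloto list again had 2 peaks here. The first, chr11:34937716-34937960, had its summit at 34937822, 18 bp from that of WT, with a fold of 12.9 and 37 reads (26.1 to 51.0). The second, chr11:34938124-34938298, had a fold of 5.42 and 18 reads (10.7 to 28.4). Its summit lay 423 bp from the first and 3 bp inside the end of the WT peak, and the peak ran 50 bp past that end. The 2 bloto peaks covered 420 bp, or 45.8% of the length called in WT.

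NDUFA4 and PDHX were therefore 2 of the 6 WT peaks in the whole list that overlapped 2 bloto peaks. These 6 make up 0.946% of the WT peaks and 3.61% of the 166 WT peaks with any bloto peak. The smaller NDUFA4 peak had a −log10 q of 4.62, so with a −log10 q of at least 5 NDUFA4 had 1 bloto peak, while PDHX still had 2. At both promoters the larger bloto peak sat near the WT summit and the smaller one lay towards higher hg19 positions. NDUFA4 is on the minus strand and PDHX on the plus strand, so these are opposite sides relative to transcription. The lists give 1 summit for each peak, so the WT signal at the place of the smaller bloto summit is not known.

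**Figure D1:**
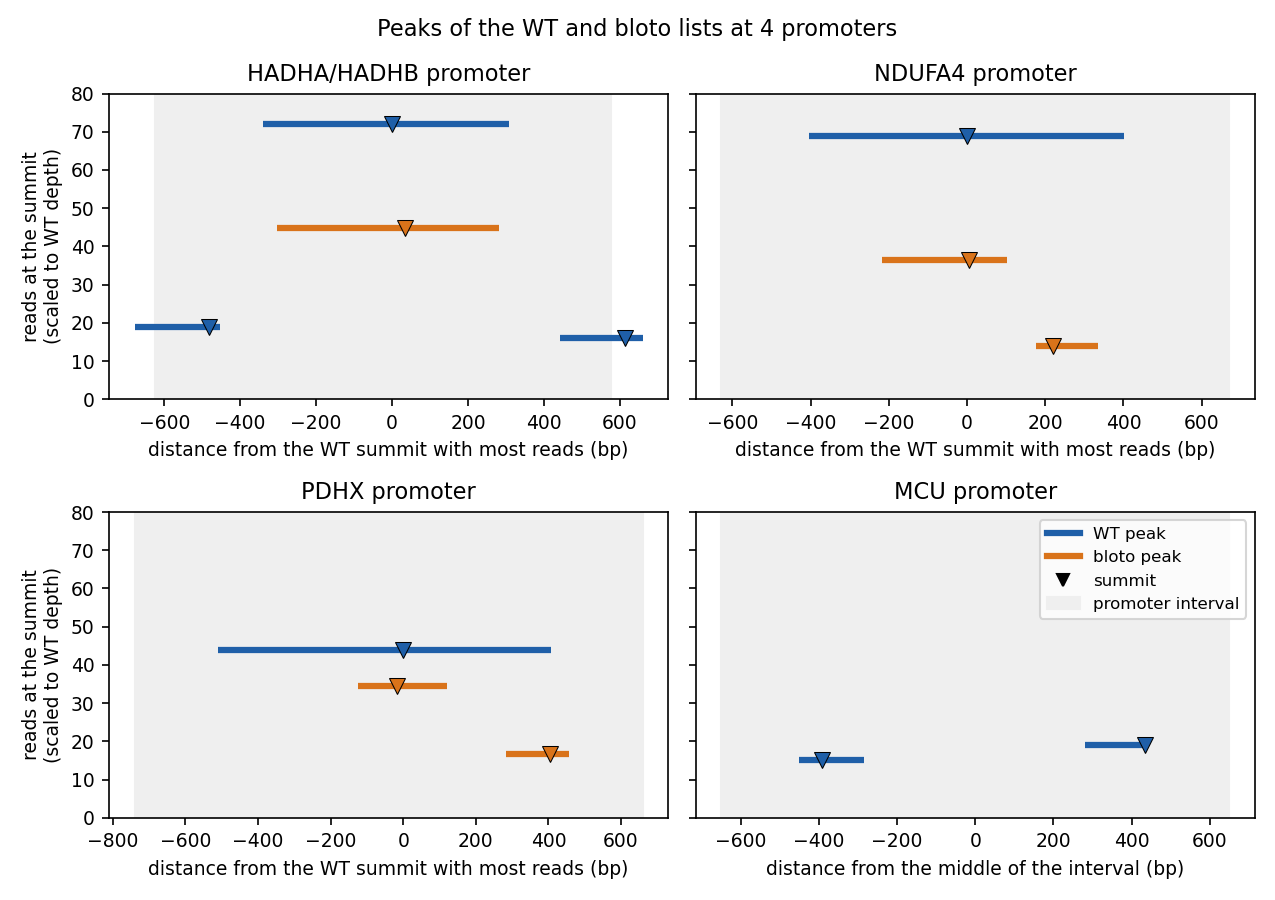
Peaks at the 4 promoters, drawn as horizontal bars from start to end at the height of their summit reads, with bloto reads scaled to the WT depth; triangles mark summits and grey the promoter interval. The x axis is the distance in bp from the WT summit with most reads, or from the middle of the interval for MCU. The bloto bars lie below the WT bars and within or at the edge of them, NDUFA4 and PDHX have 2 bloto bars each, and MCU has none.

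MCU had the weakest binding. Its WT peaks, chr10:74451799-74451965 and chr10:74452530-74452688, were 167 and 159 bp wide, close to the narrowest width of the list, 146 bp. The first had a fold of 4.61, rank 576 of 634, and 15 reads (8.40 to 24.7). The second had a fold of 4.32, rank 587, and 19 reads (11.4 to 29.7). Their summits were 827 bp apart, and no peak was called in the 564 bp between the peaks. Against the WT medians of 6.71 for fold and 26 for summit reads, both peaks were low, and the bloto list had no peak in the interval. The MCU intervals of the Poisson counts lie wholly below those of the central HADHA and HADHB, NDUFA4 and PDHX peaks.

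Together, 5 of the 7 WT peaks, those of HADHA and HADHB and of MCU, had another WT peak within 1000 bp, against 14.0% of all 634 WT peaks. These 5 peaks lie in only 2 intervals and are each other's neighbours. Members were all peaks of short intervals, so the count cannot show that peaks cluster more here than elsewhere. The members took 2 forms. At 3 promoters a tall peak of 44 to 72 reads and 648 to 918 bp was present. The other 4 peaks, 2 flanking the HADHA and HADHB centre and 2 at MCU, had 15 to 19 reads and widths of 159 to 226 bp.

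**Figure D2:**
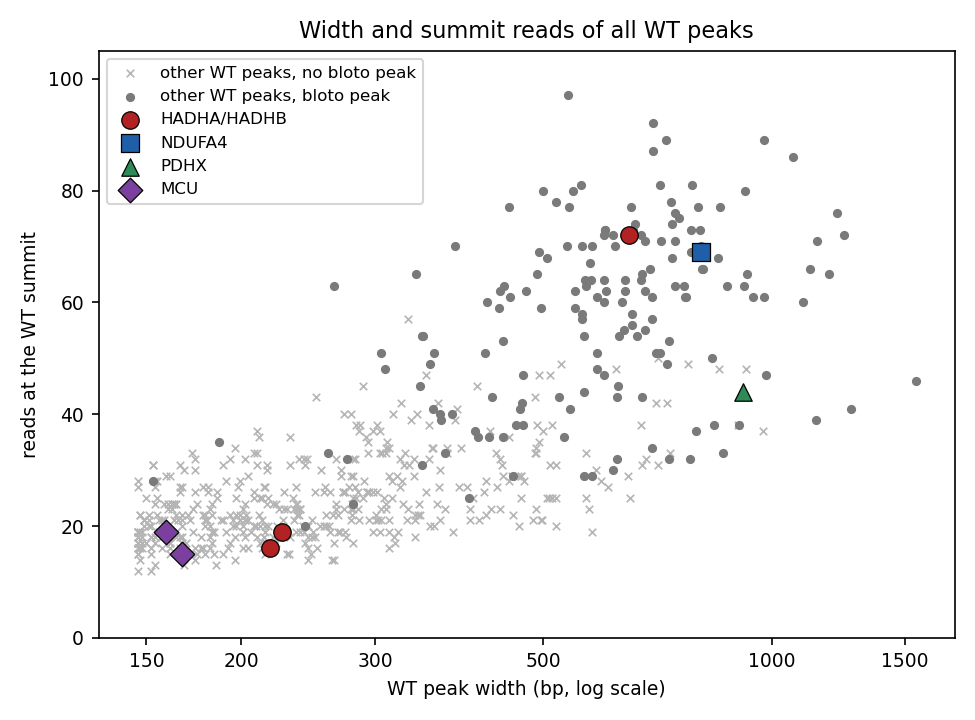
Summit reads against peak width (log scale, bp) for all 634 WT peaks; crosses have no bloto peak, grey circles have one, and coloured symbols are the members. The 3 tall members lie among wide peaks, with PDHX at 918 bp and 44 reads, and the other 4 lie in the dense corner of narrow, low peaks.

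Of the 7 WT peaks, 3 had a bloto peak, against 26.2% of all WT peaks, and these were the 3 tall ones. With reciprocal overlap of at least 50%, only the HADHA and HADHB peak of the 7 had a bloto peak, and 16.6% of all WT peaks had one. Over all WT peaks with 44 to 72 reads, the range of these 3, the share with a bloto peak was 88.9% (96 of 108, exact Clopper-Pearson 95% interval 81.4% to 94.1%). Over all WT peaks with 15 to 19 reads, the range of the other 4, it was 0.0% (0 of 121, exact Clopper-Pearson 95% interval 0.0% to 3.003%). Taken as 3 counts of the total, a count of 0 allows a share of up to 2.48%.

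At each of these 3 promoters, as at all 166 WT peaks with a bloto peak, the point value of the recovered signal, scaled and background-subtracted, was lower in bloto than in WT. With bloto reads scaled to the WT depth and the local background of each list subtracted, NDUFA4 had 65.9 reads in WT and 33.5 in bloto, a ratio of 0.51. HADHA and HADHB had 69.95 and 42.7 reads, a ratio of 0.61. PDHX had 41.6 and 32.8 reads, a ratio of 0.79. The median over the 166 shared sites was 0.54, with quartiles of 0.46 and 0.62. The highest ratio was 0.946, at a site with 28 WT and 26 bloto reads. By this measure no point value reached equal signal, but counting error is not included. NDUFA4 and the HADHA and HADHB promoter fell between these quartiles. PDHX lay above them, and 5 of the 166 shared sites had a higher ratio.

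The counting error of single sites is wide. Without background subtraction, the ratios and their exact 95% intervals from the binomial share of reads were 0.53 (0.35 to 0.79) for NDUFA4 and 0.62 (0.42 to 0.91) for HADHA and HADHB. For PDHX they were 0.79 (0.49 to 1.25). The first 2 intervals lie below 1 and that of PDHX includes it. All 3 overlap, and a difference between the promoters was not tested. At PDHX the authors' folds go the other way, 12.7 in WT and 12.9 in bloto, each over its own background, which was 2.39 reads in WT and, at equal depth, 1.81 in bloto. At NDUFA4 the bloto background was 0.95 of that of WT, and at HADHA and HADHB 1.07. Counted from its smaller bloto peak, the ratio would be 0.19 at NDUFA4 and 0.35 at PDHX, at places 219 and 405 bp from the WT summit.

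**Figure D3:**
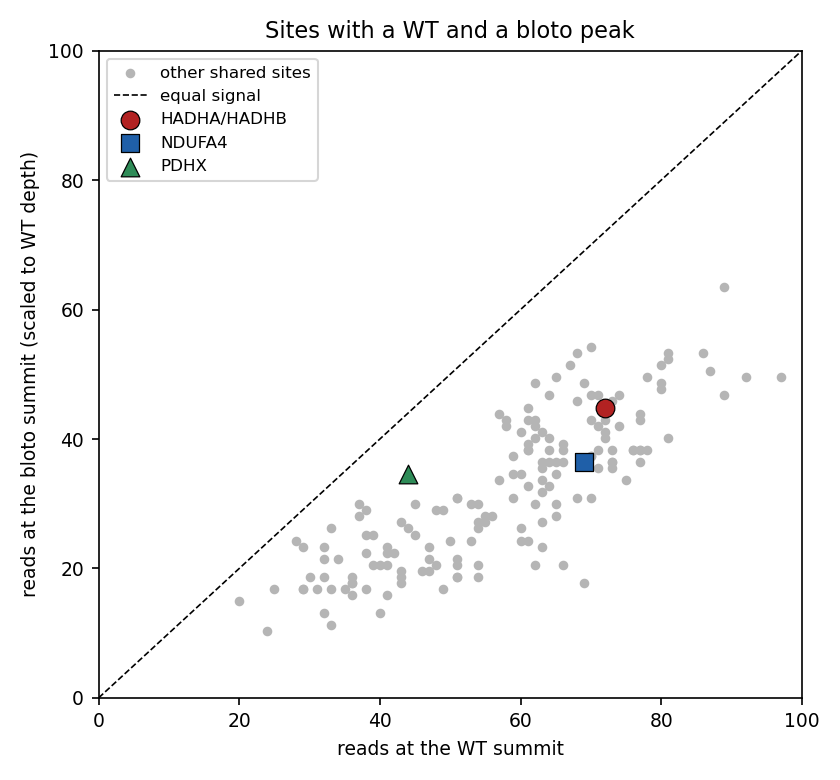
Reads at the bloto summit, scaled to the WT depth, against reads at the WT summit, for the 166 WT peaks with a bloto peak; the dashed line marks equal signal and coloured symbols are the 3 member promoters. All 3 lie below the line, as do the other shared sites. NDUFA4 (69 and 36.5 reads) and HADHA/HADHB (72 and 44.9) lie within the cloud, and PDHX (44 and 34.6) lies on its upper edge.

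The summits of the 2 forms lay close together at these promoters. The distances of 4 bp at NDUFA4, 18 bp at PDHX and 35 bp at HADHA and HADHB compare with a median of 18.5 bp over all shared sites, of which 116 of 166 were no further apart than 35 bp. The bloto summit lay at a higher hg19 position than that of WT at 2 of the 3, and at a lower one at PDHX. Summit positions have no replicate error here.

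The missing bloto peaks at MCU and beside the HADHA and HADHB centre were set against the reads that a call would have needed. The lowest −log10 p in the bloto list, 6.76, was taken as the limit because the cutoff itself is not known. At the WT background scaled to the bloto depth, reaching it took 14 reads at the first MCU peak, where the WT signal would have been 16.0 reads at that depth. At the second MCU peak it took 17 reads, against 20.3. At the HADHA and HADHB flanks it took 14 reads against 20.3 and 17 against 17.1. To reach this limit, a bloto peak at MCU would have needed 0.85 and 0.80 of the WT signal, and at the flanks 0.65 and 0.99. The median of the shared sites was 0.54, taken only over sites with a bloto call. None of the 121 WT peaks with 15 to 19 reads was among them, so this median gives no expected value for these weak peaks. At the 3 tall peaks the needed part was 0.14 to 0.26. The weaker flank and the first MCU peak were themselves among the 20 WT peaks with a −log10 p under 6.76. The margin was widest at the first flank, 20.3 reads against 14, and narrowest at the weaker flank, 17.1 against 17. At each MCU and flank peak the WT signal at bloto depth was above the reads needed. The reads needed also lay inside the Poisson interval of the WT count, which is given at WT depth. A missing call does not tell a full loss from a partial one, and whether binding changed at these peaks was not tested. These limits use the WT background, since the bloto background is known only at bloto peaks, and no minimum width of a peak. They rest on the weakest bloto peak called, so a call may have needed fewer reads than given here.

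**Figure D4:**
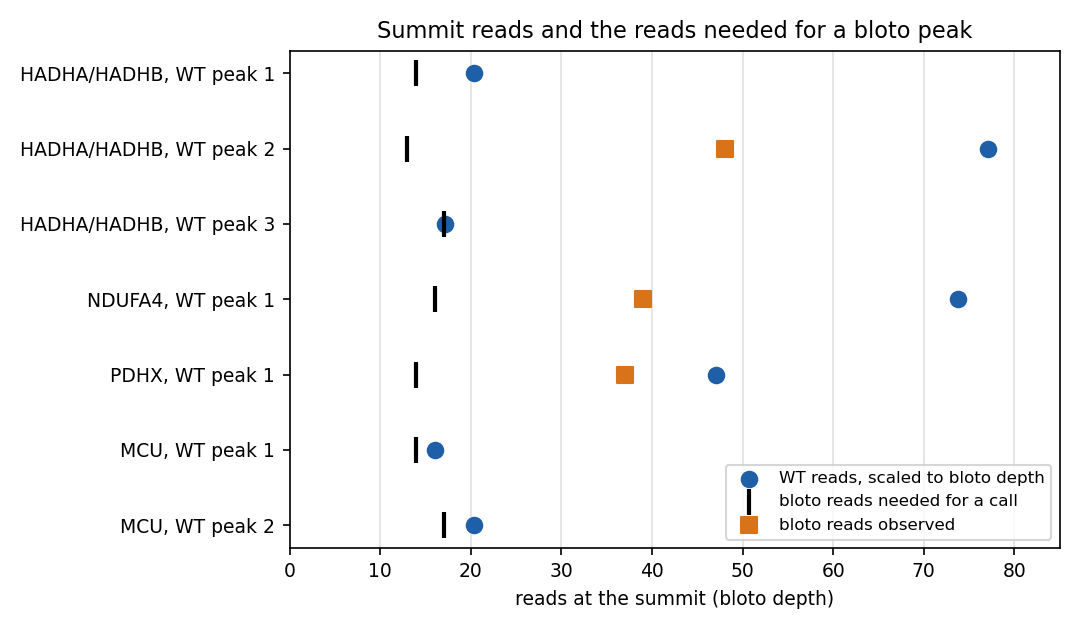
WT reads scaled to the bloto depth (circles), the reads needed for a bloto call at the WT background (vertical ticks) and the bloto reads observed (squares) for the 7 WT peaks. At the 4 peaks without a square the circles lie at 16.0 to 20.3 reads and the ticks at 14 or 17. The circle is closest to its tick at HADHA/HADHB, WT peak 3 (17.1 against 17), and furthest at WT peak 1 (20.3 against 14). At the 3 with a square both symbols lie further to the right of the tick.

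No tagged-protein peak stood near these intervals elsewhere. The nearest other WT peak was 787 kb from the HADHA and HADHB interval, 476 kb from that of PDHX and 337 kb from that of MCU. In the bloto list the nearest other peak was 1645 kb away for HADHA and HADHB, 864 kb for PDHX and 608 kb for MCU. The control list had 0 peaks in all 4 intervals.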

How the data were processed

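The data used were the deposited peak lists of the 3 ChIP samples, 1 library for each. MACS2 and hg19 are named in the submitters' processing notes, beside BWA, SAMtools, cutadapt 1.4.1 and CASAVA 1.8.2. For the cutoff and for the input behind a list, the sources used here give nothing. Peaks were called per sample. Each deposited row gave the fold of a peak (a ratio over its local background), its p-value and its q-value within the list, both as −log10, a score of 10 times the latter cut to a whole number, and a summit offset. The authors' score was not analysed further.

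Summit reads were solved from the authors' fold, taken as (pileup + 1)/(background + 1), and p-value, taken as the upper Poisson tail. WT pileups were whole multiples of 0.856 in 634 of 634 peaks and bloto pileups whole numbers in 174 of 174, within 0.001 reads. The procedure was tested on simulated data built with these formulas and recovered 100% of 590 WT-like and 100% of 169 bloto-like peaks. The lowest background of each list, over the narrowest peak width of 146 bp, gave the depth. Bloto depth was 1.07 times that of WT. Overlap meant at least 1 bp. At a site with several bloto peaks, the one with most reads gave the ratio.

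The members, the words and all lists were chosen with earlier results of these data known. The genes named are the 5 members and APIP, whose start neighbours that of PDHX. Lists of other genes of these pathways were not analysed here, because the RefSeq tables are on GRCh38.p14 and no coordinates were converted. Alternatives covered stricter peaks, other overlaps and other scalings. Analyses used Python 3.11.15, numpy 2.4.6, pandas 2.3.3, scipy 1.17.1 and matplotlib 3.10.9.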

Additional observations from a re-analysis of the deposited data

How the results depend on the processing

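The alternatives gave 45 values, of which 39 stayed inside the main value's interval or, where peaks were counted, within 1.5 times of the main count. Some of the 39 could not have changed. The MCU bloto count of 0 cannot rise under a stricter filter. HADHA and HADHB had a single bloto peak, so choosing the nearest summit left its values the same. With a −log10 q of at least 5, NDUFA4 had 1 bloto peak and MCU 0 WT peaks. With a fold of at least 5, MCU also had 0 WT peaks. Reciprocal overlap of at least 50% left 1 of the 7 member WT peaks with a bloto peak, that of HADHA and HADHB, and 16.6% of all WT peaks. With a −log10 q of at least 5 in both lists, 29.98% of WT peaks were shared. For these 6 changes the cause was not tested. The HADHA and HADHB promoter had 2 WT peaks in place of 3 with a −log10 q of at least 5, and also with a fold of at least 5. It also had 2 when the summit had to lie in the interval. These counts are within 1.5 times of the main one. The ratio of the authors' folds was 0.64 for HADHA and HADHB, 0.59 for NDUFA4 and 1.02 for PDHX, the last on the other side of 1 from the ratio of reads but within its interval. No paired analysis was possible because there was only 1 library for each condition, so no replicate could be left out either. With 1 clone and 1 library for each form, no value has a replicate error.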
